A study of Rattus norvegicus with 24 samples.

Results

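Skeletal muscle genes were followed across 24 expression arrays of rat thyroid glands. The group holds 39 genes chosen by symbol for their known place in the sarcomere, in muscle calcium handling or in muscle energy supply. A gene was represented by the probe, a 60-base oligonucleotide on the array, that carried its symbol and had the highest mean signal. Of the 39 genes, 37 had such a probe, all 37 passed the filter on dim probes, and they are 37 of the 20292 genes tested. No probe was found under the symbols Ryr1, the calcium release channel of the sarcoplasmic reticulum, and Tcap, the titin cap protein, so neither was analysed here. The arrays come from RccHan Wistar pups in 6 groups of 4: control and acrylamide-exposed females killed at 10 PM, control and acrylamide-exposed males killed at 10 PM, and control and acrylamide-exposed females killed at 10 AM. Exposed pups came from dams given acrylamide, a reactive small molecule, at a daily 3 mg per kg body weight through drinking water, starting on gestational day 6, and stayed on that dose until postnatal day 35 (give or take 3 days), while control animals drank tap water. The labels describe 5 pups of each sex killed at each time but do not link replicate numbers to animals; p-values therefore measure only the spread between these samples. The labelled design asks what a low chronic dose does to the gland at night and in the morning.

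A skeletal muscle fibre contracts when myosin of the thick filament pulls on actin of the thin filament inside the sarcomere, the repeating unit between a pair of Z discs. Calcium released from the sarcoplasmic reticulum binds troponin C, which moves tropomyosin off the actin sites, and a calcium pump then clears the signal. Fast and slow fibres use different genes for many of these parts, so the balance of paired genes reports fibre type. The thyroid gland holds no skeletal muscle of its own, but it lies against the strap muscles of the neck, the striated muscle of the larynx and, in rodents, the striated coat of the oesophagus. In whole-tissue RNA, fewer muscle cells and less RNA per muscle cell cannot be told apart.

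Levels are log2 processed signals above the 75th percentile of the same array, so a level of 0 equals that percentile, and a difference of 1 is a doubling. The share of spots brighter than background by the scanner software's call was 71.5% to 82.3%. Each night stratum, female or male, has a slide of its own, and morning females share 2 slides read in another scan session with a lower saturation limit. Night and morning therefore cannot be told apart from slide and scan session, nor can males and females at night from slide. At night each slide holds its controls in row 1 and its acrylamide arrays in row 2, so treatment there cannot be told apart from row. The mean of 10 thyroid follicle markers was -3.15 on acrylamide replicate 1 of morning females and between 1.80 and 3.19 on every other array. The parathyroid list mean was -5.28 on that array, -2.55 on acrylamide replicate 3 of morning females, -0.72 on control replicate 1 of morning females and -1.74 on acrylamide replicate 4 of males. The 1 Y-linked gene measured, Ube1y1, went against the labels on 2 arrays. It stood at -6.44 on the array labelled acrylamide replicate 4 of males (-4.16 to -3.13 on the other 7 male arrays) and at -4.56 on the array labelled control replicate 4 of morning females (-8.89 to -7.14 on the other 15 female arrays). The muscle results that rest on these arrays, and the marker list medians, are given with and without them.

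Fast and slow members are measured by different probes even where the proteins are close, and a few probe sequences show how far apart the paired targets are. In the pairs that follow, both probes fall on matching stretches of a fast and a slow gene, and capitals mark the bases that differ where they overlap (all 5′ to 3′ along the transcript).
Tnnc2: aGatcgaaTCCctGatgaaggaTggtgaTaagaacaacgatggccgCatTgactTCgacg
Tnnc1: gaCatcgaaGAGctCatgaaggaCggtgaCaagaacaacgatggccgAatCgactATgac
Myh2: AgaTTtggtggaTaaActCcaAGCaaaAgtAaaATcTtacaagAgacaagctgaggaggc
Myh7: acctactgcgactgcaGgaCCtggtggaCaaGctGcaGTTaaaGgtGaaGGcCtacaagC
Tnnt3: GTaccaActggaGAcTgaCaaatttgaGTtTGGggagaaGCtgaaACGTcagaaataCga
Tnnt1: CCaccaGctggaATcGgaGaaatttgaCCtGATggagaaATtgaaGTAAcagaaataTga
The troponin C probes, for the calcium sensor of fast (Tnnc2) and slow (Tnnc1) fibres, share 48 of 59 overlapping bases, the closest match among the chosen probes of the 37 genes. The myosin heavy chain probes share 29 of 44 bases, and the troponin T probes 41 of 60. The Tnnt1 sequence shown is that of its second probe, since the chosen one lies elsewhere in the transcript. The array's design places these probes, on the rn4 build, at chr3:155807460-155807519 (Tnnc2, minus strand), chr16:6642153-6642212 (Tnnc1, plus), chr10:53889275-53889334 (Myh2, plus), chr15:33073880-33073939 (Myh7, minus), chr1:202758664-202758723 (Tnnt3, plus) and chr1:68043171-68043230 (Tnnt1, plus). Each is an unbroken 60-base match assigned to the gene named; exon annotation of that build was not used here. Myh1, Myh2 and Myh4 are close paralogs on chromosome 10, and the closest chosen probes among these 3, of Myh2 and Myh4, share 24 of 59 overlapping bases. Cross-hybridisation between myosins was not tested.

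The mean over the muscle genes stood above the 75th percentile on every control array, and the muscle genes varied more between control arrays than the median gene. The mean level over the 37 genes was 5.57, 4.95, 5.58 and 4.82 on the control arrays of females at night, and 5.94, 5.0, 5.23 and 6.24 on those of males at night. Morning control females stood at 4.69, 3.06, 4.46 and 5.27. Within these control groups the brightest array thus exceeded the dimmest by 1.69-fold, 2.37-fold and 4.62-fold in turn. The median SD over the members was 0.38, 0.67 and 1.07 (n = 4 each), against 0.18, 0.25 and 0.25 over all genes tested.

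With acrylamide the night arrays spread much further. Their means were 3.36, 1.45, 4.67 and 5.39 in females and 5.71, -0.43, 4.87 and 3.27 in males, a range of 15.3-fold and 70.6-fold. Replicate 2 held the lowest value of its group for 37 of 37 genes in each sex, at 0.073 of the control mean in females and 0.0153 of it in males. The highest value fell on replicate 4 for 36 of 37 genes in females and on replicate 1 for 37 of 37 in males, and on both of these arrays the mean was within the range of the controls. Morning acrylamide arrays stood at 5.63, 4.64, 5.16 and 4.78, a range of 1.99-fold that includes saturated spots. Over the 20 genes that never saturated, the range was 2.75-fold on these arrays and 5.92-fold on their controls. On acrylamide replicate 2 of males 35 genes were well above background, and on every other array all 37 were, the exceptions being the slow-fibre genes Myl2 and Myoz2. The plot of muscle level by array shows the 2 low arrays standing below all others.

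**Figure D1:**
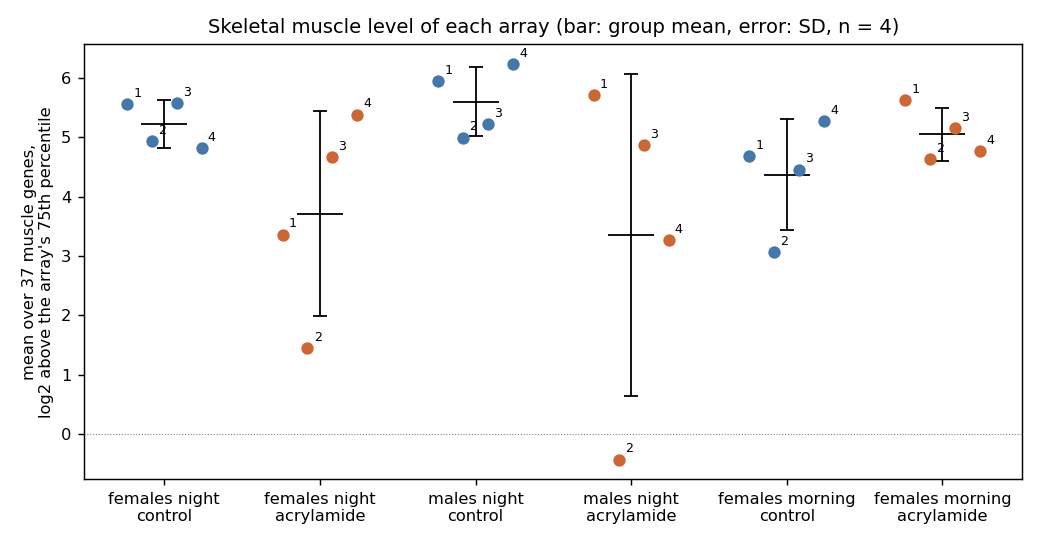
Mean level of the 37 muscle genes on each array, on the log2 scale above the array's 75th percentile, for the 6 groups (points: arrays with their replicate number; bars: group mean and SD, n = 4). Acrylamide replicate 2 lies at 1.45 in females at night and at -0.43 in males at night, and all other arrays lie between 3.06 and 6.24.

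In females at night every measured muscle gene had a lower mean with acrylamide, and none passed the test. The 37 differences ran from -2.08 to -1.03 with a median of -1.46, against a median of 0.03 over all 20292 genes. Of the members 0 were called by limma at an adjusted p under 0.05, and 0% of all genes were. At an unadjusted p under 0.05 there was 1 member (Myh1), 2.70% of them, against 1.87% of all genes. Control and acrylamide arrays overlapped for all 37, while 3.73% of all genes lay higher and 1.73% lower without overlap. The 3 largest differences belonged to slow-fibre genes, Myoz2, Myl2 and Myl3, and the 3 smallest were those of Atp2a1, Tnnc2 and Eno3. Adjusted p was 1 for every member, and without replicate 2 the median was -0.74.

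Males at night gave the same sign for all 37 genes, with wider differences and no call. They ran from -4.01 to -1.35 with a median of -2.11, against 0.01 over all genes. Limma called 0 members and 0% of all genes, and the members' adjusted p lay between 0.353 and 0.377. At an unadjusted p under 0.05 there were 31 members, 83.8% of them, against 13.6% of all genes. Groups overlapped for all 37, while 2.99% of all genes lay higher and 1.48% lower without overlap. Myh7, Myl2 and Myoz2, again slow-fibre genes, differed most, and Mylpf, Tnnc2 and Atp2a1, of fast fibres, least. Without replicate 2 the median was -0.95, and without the array labelled replicate 4, whose Ube1y1 level goes against its label, it was -2.11 with a lowest adjusted p of 0.844.

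Morning females went the other way for most muscle genes, also without a call. Among the 37, 28 were higher and 9 lower with acrylamide, from -0.41 to 1.69 with a median of 0.77, against -0.11 over all genes. Limma called 0 members, against 2.10% of all genes (0.434% higher and 1.67% lower), and the members' adjusted p ran from 0.263 to 0.998. At an unadjusted p under 0.05 there were 0 members, against 23.9% of all genes. Groups did not overlap for 1 member, Pygm, which lay higher with acrylamide (1.87% of all genes did, and 6.72% lay lower). The 3 largest differences were those of Actn2, Pygm and Ldb3. Without control replicate 2, the morning array with the least muscle, the median was 0.28, without acrylamide replicate 1, low in thyroid markers, 0.55, and without the array labelled control replicate 4, whose Ube1y1 level goes against its label, 1.09. On the slide with 2 acrylamide and 3 control arrays the median was 0.94, with 34 of 37 genes higher, and on the slide with 2 acrylamide arrays and that 1 control array it was -0.26, with 17 of 37 higher.

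Saturation marks which members can report a morning difference. Spots reach the scanner's limit on morning arrays only, where 3 to 10 members were saturated per control array and 12 to 17 per acrylamide array, and on night arrays 0 were. The 9 members lower with acrylamide in the morning are Mylpf, Tnnc2, Atp2a1, Tnni2, Tnnt3, Actn3, Pvalb, Eno3 and Ckm, and these are the 9 that were saturated on 7 or 8 of the 8 morning arrays. Their differences, -0.41 to -0.003, are limited by saturation in both groups, and no fold is given for them. All 8 members saturated on 1 to 5 morning arrays were higher (median 0.68), as were all 20 that never saturated (0.47 to 1.69, median 0.97). Tpm1, saturated on all 4 acrylamide arrays and on 0 control arrays, had a mean at least 1.23-fold higher with acrylamide, a difference that was not called. Its second probe, which never saturated, gave -0.06. Myh1 was saturated on 1 control array too, so its difference gives no such bound. At night the 9 bright members differed by a median of -1.28 in females and -1.60 in males, and the 20 never saturated by -1.57 and -2.45.

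**Figure D2:**
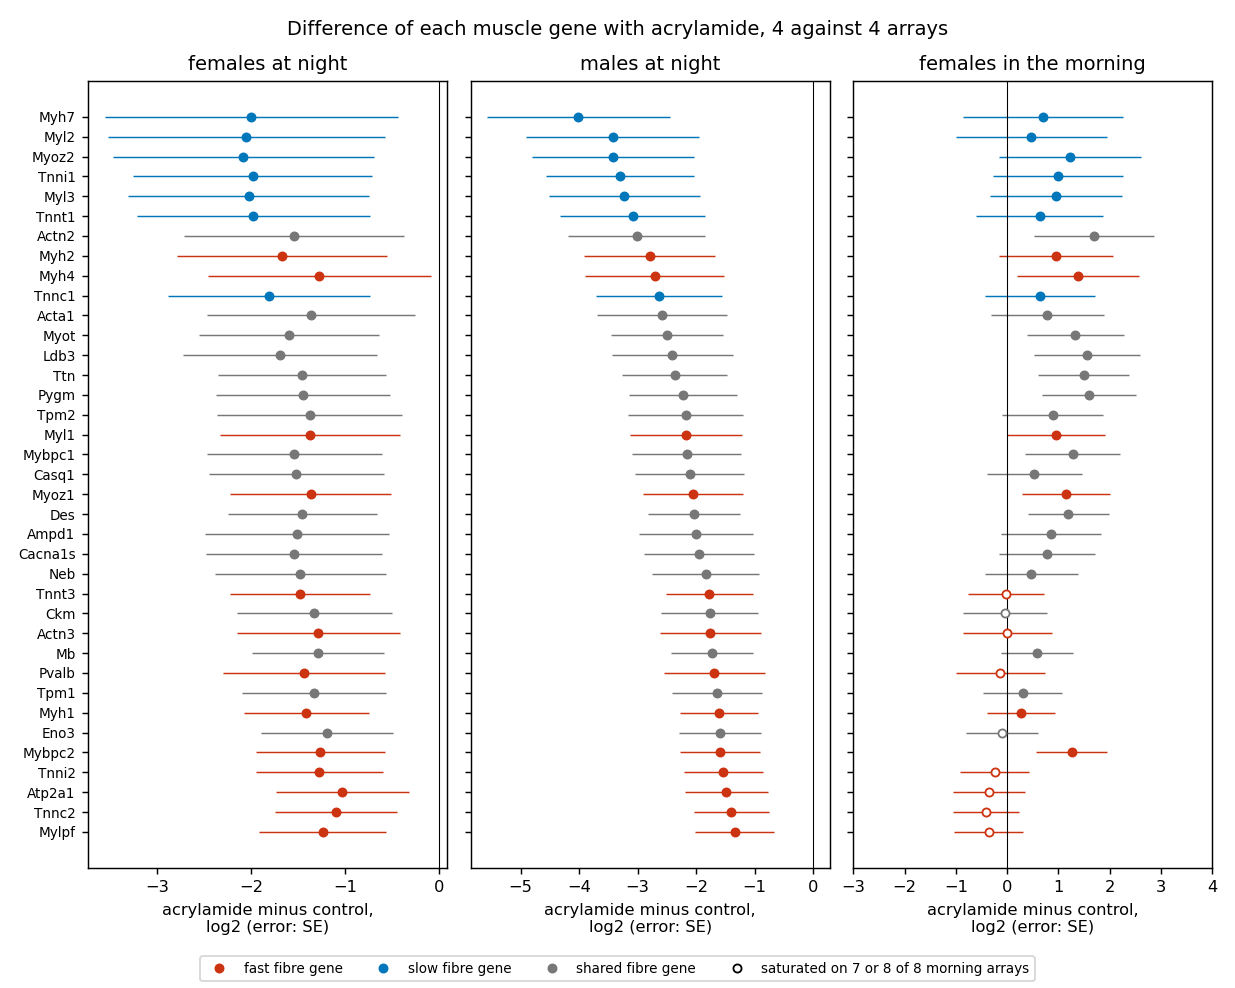
Acrylamide minus control for each of the 37 muscle genes (points: limma estimate on the log2 scale; bars: SE; 4 against 4 arrays), in females at night, males at night and morning females, with genes in the order of the male differences. All points lie below 0 in both night panels, slow-fibre genes lie farthest from 0 among males, and the hollow points of the morning panel are the 9 genes saturated on 7 or 8 of 8 arrays.

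Thick filament genes encode the myosin motors, their light chains and the binding proteins that hold the filament. All 10 were lower at night, with medians of -1.48 in females and -2.44 in males, and 9 of 10 were higher in the morning (median 0.95). None of these differences passed the test. Among the heavy chains, Myh1, of fast IIx fibres, differed by -1.42 (SE 0.67), -1.62 (SE 0.67) and 0.26 (SE 0.67) in females at night, males at night and morning females. The same differences for Myh2, of fast IIa fibres, were -1.67 (SE 1.12), -2.79 (SE 1.12) and 0.95 (SE 1.12), and for Myh4, of fast IIb fibres, -1.28 (SE 1.19), -2.71 (SE 1.19) and 1.38 (SE 1.19). The fast essential light chain Myl1 differed by -1.38 (SE 0.96), -2.17 (SE 0.96) and 0.94 (SE 0.96), and the fast myosin-binding protein Mybpc2 by -1.26 (SE 0.69), -1.59 (SE 0.69) and 1.26 (SE 0.69).

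Mylpf is the regulatory light chain of fast myosin. Mylpf levels in females at night were 8.36, 8.13, 8.43 and 8.03 on control arrays and 7.01, 5.24, 7.62 and 8.12 on acrylamide arrays. Mylpf in males at night stood at 8.53, 7.97, 7.99 and 8.99 in controls and 8.64, 4.06, 8.08 and 7.32 with acrylamide. Morning females gave Mylpf levels of 6.94, 6.85, 6.7 and 7.44 without and 6.72, 6.43, 6.99 and 6.34 with acrylamide. Acrylamide replicate 2 is the lowest array in both sexes, while replicate 4 of females and replicates 1 and 3 of males lie within the range of their controls. The night differences were -1.24 (SE 0.68) and -1.35 (SE 0.68). In the morning it was saturated on all 8 arrays, which leaves no fold to give.

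Myh7, the heavy chain of slow and cardiac muscle, differed most of all members in males at night. Myh7 levels in females at night were 5.06, 3.5, 4.63 and 3.28 on control arrays and 1.95, -1.95, 3.85 and 4.61 on acrylamide arrays. Myh7 in males at night stood at 5.26, 4.01, 5.2 and 6.0 in controls and 5.07, -5.49, 3.96 and 0.87 with acrylamide. Morning females gave Myh7 levels of 2.67, 1.65, 3.31 and 3.97 without and 3.75, 3.3, 3.68 and 3.66 with acrylamide. Replicate 2 is the low array in both exposed night groups, and the array labelled replicate 4 is the next lowest in males. The differences were -2.0 (SE 1.56), -4.01 (SE 1.56) and 0.7 (SE 1.56).

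Myl2 is the regulatory light chain of slow and ventricular muscle. Myl2 levels in females at night were 2.81, 1.81, 2.9 and 2.03 on control arrays and -0.1, -3.45, 1.79 and 3.09 on acrylamide arrays. Myl2 in males at night stood at 3.51, 1.95, 3.66 and 4.07 in controls and 3.5, -6.34, 2.45 and -0.12 with acrylamide. Morning females gave Myl2 levels of 1.5, -0.14, 1.79 and 2.6 without and 2.08, 1.82, 1.9 and 1.84 with acrylamide. The value of -6.34 was not well above background, so the male difference of -3.42 (SE 1.48) rests partly on an array that gives only a bound. Females at night differed by -2.05 (SE 1.48) and morning females by 0.47 (SE 1.48).

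Myl3 is the essential light chain of the same myosins. Myl3 levels in females at night were 3.4, 2.28, 3.3 and 2.56 on control arrays and 0.43, -2.62, 2.13 and 3.48 on acrylamide arrays. Myl3 in males at night stood at 3.96, 2.68, 4.19 and 4.39 in controls and 3.67, -4.36, 2.6 and 0.4 with acrylamide. Morning females gave Myl3 levels of 2.27, 0.7, 2.72 and 4.09 without and 4.06, 3.21, 3.49 and 2.84 with acrylamide. Exposed females at night include the highest and the lowest Myl3 value of their slide. Differences were -2.03 (SE 1.28), -3.23 (SE 1.28) and 0.96 (SE 1.28).

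Mybpc1, the myosin-binding protein C known from slow fibres and also present in fast ones, is counted here in neither fibre class. Mybpc1 levels in females at night were 5.29, 4.24, 5.29 and 4.28 on control arrays and 2.85, 0.9, 4.24 and 4.96 on acrylamide arrays. Mybpc1 in males at night stood at 5.58, 4.61, 5.08 and 5.7 in controls and 5.29, -0.29, 4.42 and 2.9 with acrylamide. Morning females gave Mybpc1 levels of 3.93, 2.19, 4.01 and 5.12 without and 6.17, 4.38, 5.23 and 4.57 with acrylamide. In the morning the highest value belongs to acrylamide replicate 1 and the lowest to control replicate 2. The 3 differences were -1.54 (SE 0.93), -2.16 (SE 0.93) and 1.28 (SE 0.93).

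Thin filament genes encode actin, the troponin complex, tropomyosin and nebulin, the ruler of filament length. All 10 were lower at night, with medians of -1.43 in females and -2.01 in males, and 7 of 10 were higher in the morning (median 0.55), with no call. The slow troponins lay farther from control at night than the fast ones. Tnni1, the slow inhibitory subunit, differed by -1.99 (SE 1.27) and -3.3 (SE 1.27), and Tnnc1, the slow calcium sensor, by -1.81 (SE 1.07) and -2.64 (SE 1.07). In the morning these were 0.99 (SE 1.27) and 0.63 (SE 1.07). Neb differed by -1.48 (SE 0.91), -1.84 (SE 0.91) and 0.47 (SE 0.91).

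Acta1 is skeletal muscle actin, the backbone of the thin filament. Acta1 levels in females at night were 7.58, 7.05, 7.66 and 6.97 on control arrays and 5.4, 4.02, 6.79 and 7.59 on acrylamide arrays. Acta1 in males at night stood at 7.82, 6.7, 7.04 and 8.14 in controls and 7.72, -0.06, 7.23 and 4.47 with acrylamide. Morning females gave Acta1 levels of 6.56, 4.19, 5.85 and 5.78 without and 6.71, 6.28, 6.2 and 6.33 with acrylamide. On acrylamide replicate 2 of males the level was just below the 75th percentile of the array, and on every other array it was above. Differences were -1.37 (SE 1.11), -2.58 (SE 1.11) and 0.78 (SE 1.11), the last with 2 of 4 acrylamide arrays saturated.

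Tnni2 is the inhibitory troponin of fast fibres. Tnni2 levels in females at night were 8.42, 8.02, 8.35 and 7.91 on control arrays and 6.76, 5.15, 7.62 and 8.05 on acrylamide arrays. Tnni2 in males at night stood at 8.7, 8.07, 8.16 and 8.96 in controls and 8.6, 4.07, 7.94 and 7.13 with acrylamide. Morning females gave Tnni2 levels of 7.06, 6.39, 6.77 and 7.52 without and 6.74, 6.55, 7.08 and 6.39 with acrylamide. Acrylamide replicate 4 of females and replicate 1 of males lie inside the range of their night controls, and replicate 2 is the lowest in both. Night differences were -1.28 (SE 0.68) and -1.54 (SE 0.68), and 3 control and 4 acrylamide arrays were saturated in the morning.

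Tnnc2, the fast calcium sensor whose probe is printed beside that of Tnnc1, was among the 3 least different members in both night comparisons. Tnnc2 levels in females at night were 8.31, 8.04, 8.44 and 7.87 on control arrays and 7.07, 5.34, 7.75 and 8.11 on acrylamide arrays. Tnnc2 in males at night stood at 8.54, 7.93, 8.0 and 8.87 in controls and 8.44, 4.16, 8.01 and 7.14 with acrylamide. Morning females gave Tnnc2 levels of 6.88, 6.93, 6.62 and 7.38 without and 6.62, 6.34, 6.94 and 6.25 with acrylamide. The low night array is again acrylamide replicate 2, and 1 exposed array of females and 2 of males overlap their controls. Its night differences of -1.1 (SE 0.65) and -1.4 (SE 0.65) compare with -1.81 and -2.64 for Tnnc1. All 8 morning arrays were saturated.

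Tnnt3 is the fast troponin that ties the complex to tropomyosin. Tnnt3 levels in females at night were 7.41, 7.02, 7.31 and 6.77 on control arrays and 5.44, 3.66, 6.35 and 7.14 on acrylamide arrays. Tnnt3 in males at night stood at 7.77, 7.13, 6.99 and 7.79 in controls and 7.41, 2.64, 6.58 and 5.96 with acrylamide. Morning females gave Tnnt3 levels of 6.79, 5.32, 6.49 and 7.21 without and 6.5, 6.29, 6.83 and 6.11 with acrylamide. At night 1 acrylamide array of each sex lies within the control range and 3 lie below it. The night differences were -1.48 (SE 0.75) and -1.77 (SE 0.75). In the morning, with 3 control and 4 acrylamide arrays saturated, the groups had nearly equal means.

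Tnnt1 is its slow counterpart. Tnnt1 levels in females at night were 5.8, 4.87, 5.7 and 4.81 on control arrays and 3.22, -0.46, 4.77 and 5.73 on acrylamide arrays. Tnnt1 in males at night stood at 6.19, 5.27, 6.58 and 6.88 in controls and 6.11, -1.53, 5.25 and 2.75 with acrylamide. Morning females gave Tnnt1 levels of 4.47, 3.23, 4.86 and 5.81 without and 5.45, 5.16, 5.45 and 4.85 with acrylamide. As for Tnnt3, 3 of 4 exposed night arrays of each sex lie below all their controls. The differences were -1.98 (SE 1.24), -3.08 (SE 1.24) and 0.63 (SE 1.24). Its second probe, printed above, gave -2.03, -3.10 and 0.77.

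Z disc genes anchor the filaments, and titin spans from the Z disc to the middle of the sarcomere. The 8 measured here, with desmin, the intermediate filament around the Z discs, were lower at night by medians of -1.50 in females and -2.39 in males. In the morning 7 of 8 were higher, with a median of 1.28, the widest of the 5 roles, and none was called. Des differed by -1.46 (SE 0.79), -2.04 (SE 0.79) and 1.19 (SE 0.79), the actin cross-linker Myot by -1.6 (SE 0.95), -2.5 (SE 0.95) and 1.33 (SE 0.95), and Myoz1, the calcineurin-binding protein of fast fibres, by -1.37 (SE 0.85), -2.05 (SE 0.85) and 1.15 (SE 0.85).

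Actn3 is the alpha-actinin of fast fibres. Actn3 levels in females at night were 7.66, 7.42, 7.71 and 7.07 on control arrays and 6.06, 4.54, 6.84 and 7.28 on acrylamide arrays. Actn3 in males at night stood at 7.75, 6.95, 6.83 and 8.17 in controls and 7.85, 1.63, 6.99 and 6.21 with acrylamide. Morning females gave Actn3 levels of 6.85, 5.51, 6.58 and 7.37 without and 6.68, 6.38, 6.96 and 6.28 with acrylamide. Below all their night controls lie 3 exposed arrays of females and 2 of males. Night differences were -1.29 (SE 0.87) and -1.76 (SE 0.87). Only control replicate 2 escaped saturation in the morning.

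Actn2, the alpha-actinin found in all fibres and in heart, had the largest morning difference. Actn2 levels in females at night were 1.57, 0.97, 1.99 and 0.98 on control arrays and -1.14, -2.28, 1.04 and 1.71 on acrylamide arrays. Actn2 in males at night stood at 2.38, 1.11, 1.83 and 2.82 in controls and 2.0, -5.41, 1.59 and -2.1 with acrylamide. Morning females gave Actn2 levels of -0.27, -1.77, -0.32 and 0.19 without and 2.95, 0.2, 0.1 and 1.34 with acrylamide. Acrylamide replicates 1, 2 and 4 of morning females lie above all their controls, and replicate 3 lies just below the highest one. Morning females differed by 1.69 (SE 1.17), against -1.54 (SE 1.17) and -3.02 (SE 1.17) at night.

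Myoz2 is the calcineurin-binding Z disc protein of slow fibres and heart. Myoz2 levels in females at night were 1.23, 0.95, 1.98 and 0.52 on control arrays and -1.92, -4.17, 0.74 and 1.68 on acrylamide arrays. Myoz2 in males at night stood at 2.19, 0.9, 2.17 and 2.7 in controls and 1.83, -7.26, 0.93 and -1.24 with acrylamide. Morning females gave Myoz2 levels of -0.05, -1.69, 0.43 and 1.01 without and 2.21, 0.59, 0.65 and 1.15 with acrylamide. The value of -7.26 was not well above background and stands far under that on any other array. The differences were -2.08 (SE 1.39), the largest in females at night, -3.42 (SE 1.39) and 1.23 (SE 1.39).

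Ldb3, a PDZ and LIM domain protein that binds alpha-actinin, was named by the older of the 2 design annotations only. Ldb3 levels in females at night were 2.58, 2.26, 2.77 and 2.06 on control arrays and 0.02, -1.44, 1.58 and 2.76 on acrylamide arrays. Ldb3 in males at night stood at 3.25, 2.36, 1.96 and 3.34 in controls and 2.72, -3.58, 2.16 and -0.01 with acrylamide. Morning females gave Ldb3 levels of 1.66, -0.63, 1.19 and 1.94 without and 4.16, 1.64, 2.13 and 2.47 with acrylamide. Its morning difference was 1.56 (SE 1.03), with acrylamide replicate 1 the highest of all 24 arrays. At night it was -1.69 (SE 1.03) and -2.41 (SE 1.03).

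Ttn encodes titin, the elastic protein of the sarcomere. Ttn levels in females at night were 5.02, 3.92, 4.85 and 3.82 on control arrays and 2.67, 0.83, 3.77 and 4.49 on acrylamide arrays. Ttn in males at night stood at 5.04, 4.35, 4.01 and 5.25 in controls and 4.84, -1.03, 3.15 and 2.22 with acrylamide. Morning females gave Ttn levels of 4.44, 2.29, 3.9 and 4.2 without and 6.28, 4.23, 5.18 and 5.09 with acrylamide. The probe covers a small piece of a very long transcript, and on it morning acrylamide replicates 1, 3 and 4 lie above all 4 controls. Differences were -1.46 (SE 0.9), -2.37 (SE 0.9) and 1.49 (SE 0.9).

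Calcium handling genes start and end each contraction. The 4 measured were lower at night by medians of -1.48 in females and -1.82 in males. In the morning 2 of 4 were higher (median 0.20), and those lower, Atp2a1 and Pvalb, were saturated there on 7 or 8 arrays. Pvalb, the calcium buffer parvalbumin of fast fibres, differed by -1.44 (SE 0.86) and -1.69 (SE 0.86) at night. Cacna1s, the voltage sensor of the transverse tubule, differed by -1.55 (SE 0.94), -1.95 (SE 0.94) and 0.77 (SE 0.94).

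Atp2a1 is the calcium pump of the fast sarcoplasmic reticulum and had the smallest difference in females at night. Atp2a1 levels in females at night were 8.56, 8.15, 8.29 and 7.97 on control arrays and 7.14, 5.64, 7.95 and 8.11 on acrylamide arrays. Atp2a1 in males at night stood at 8.53, 7.8, 7.73 and 8.99 in controls and 8.57, 3.62, 8.0 and 6.92 with acrylamide. Morning females gave Atp2a1 levels of 6.92, 6.75, 6.62 and 7.29 without and 6.6, 6.4, 6.91 and 6.21 with acrylamide. Acrylamide replicate 4 of females and replicates 1 and 3 of males lie within the range of their night controls. The night differences were -1.03 (SE 0.71) and -1.49 (SE 0.71), and every morning array was saturated.

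Casq1, calsequestrin, stores calcium in the reticulum. Casq1 levels in females at night were 6.63, 6.11, 6.68 and 6.03 on control arrays and 4.56, 2.9, 5.66 and 6.26 on acrylamide arrays. Casq1 in males at night stood at 7.01, 5.99, 6.06 and 7.15 in controls and 6.72, 0.55, 5.99 and 4.52 with acrylamide. Morning females gave Casq1 levels of 6.64, 4.16, 5.76 and 6.9 without and 6.71, 6.03, 6.6 and 6.24 with acrylamide. In females at night all 4 acrylamide values lie below the control mean, and in the morning all 4 lie above it, while the groups overlap in both. The differences were -1.52 (SE 0.93), -2.11 (SE 0.93) and 0.53 (SE 0.93).

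Energy metabolism genes supply ATP to the fibre. The 5 measured were lower at night by medians of -1.33 in females and -1.77 in males, and 3 of 5 were higher in the morning (median 0.58). Mb, the oxygen store myoglobin, differed by -1.29 (SE 0.7), -1.73 (SE 0.7) and 0.58 (SE 0.7), and Ampd1, the muscle AMP deaminase, by -1.51 (SE 0.98), -2.01 (SE 0.98) and 0.85 (SE 0.98).

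Ckm, muscle creatine kinase, regenerates ATP from phosphocreatine. Ckm levels in females at night were 8.03, 7.49, 7.83 and 7.29 on control arrays and 6.12, 4.54, 7.18 and 7.48 on acrylamide arrays. Ckm in males at night stood at 8.19, 7.6, 7.19 and 8.55 in controls and 8.12, 2.52, 7.61 and 6.19 with acrylamide. Morning females gave Ckm levels of 6.97, 5.65, 6.66 and 7.49 without and 6.75, 6.46, 7.01 and 6.38 with acrylamide. The night differences were -1.33 (SE 0.82) and -1.77 (SE 0.82). Its morning groups interleave, with 7 of 8 arrays saturated.

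Eno3 is the muscle enolase of glycolysis. Eno3 levels in females at night were 7.53, 7.25, 7.6 and 6.98 on control arrays and 6.08, 4.29, 6.82 and 7.38 on acrylamide arrays. Eno3 in males at night stood at 7.86, 7.29, 7.17 and 8.04 in controls and 7.74, 3.17, 7.11 and 5.95 with acrylamide. Morning females gave Eno3 levels of 6.88, 5.73, 6.63 and 7.4 without and 6.65, 6.36, 6.96 and 6.27 with acrylamide. In each sex 3 exposed night arrays lie below every control. Night differences were -1.2 (SE 0.7) and -1.6 (SE 0.7). Here too 7 of 8 morning arrays were saturated.

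Pygm, muscle glycogen phosphorylase, releases glucose units from glycogen. Pygm levels in females at night were 4.24, 3.57, 3.98 and 3.26 on control arrays and 1.92, 0.35, 3.18 and 3.79 on acrylamide arrays. Pygm in males at night stood at 4.5, 3.63, 3.18 and 4.63 in controls and 4.17, -1.84, 3.18 and 1.52 with acrylamide. Morning females gave Pygm levels of 3.12, 0.92, 2.53 and 2.88 without and 5.22, 3.22, 3.62 and 3.78 with acrylamide. Every morning acrylamide array lies above every morning control, by a narrow margin at replicate 2. The morning difference was 1.6 (SE 0.92) (adjusted p = 0.289), and the night differences were -1.45 (SE 0.92) and -2.23 (SE 0.92).

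**Figure D3:**
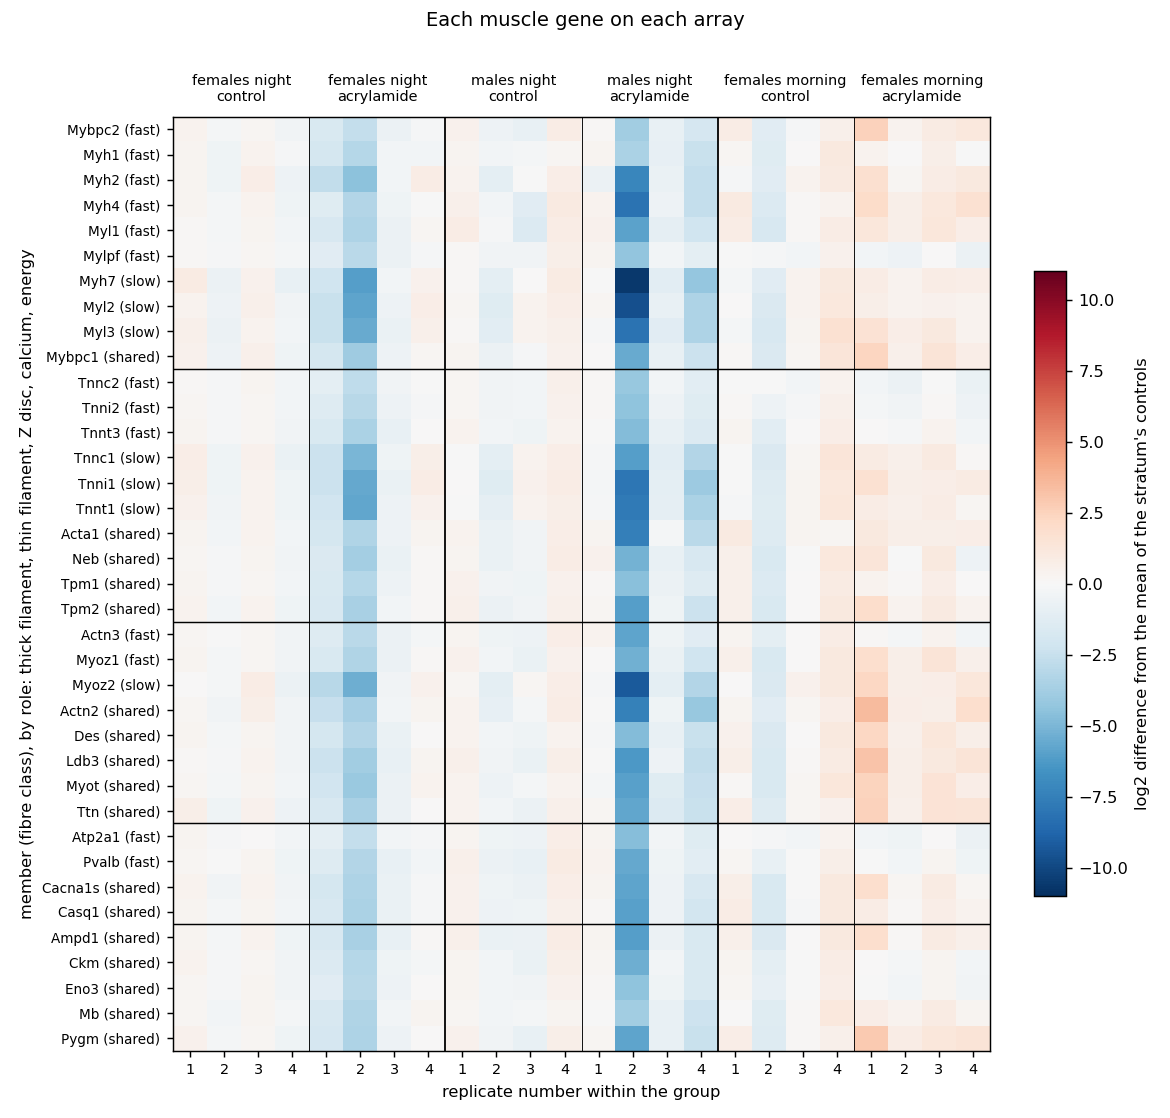
Log2 difference of each of the 37 muscle genes from the mean of its stratum's controls on each of the 24 arrays (columns, by group and replicate number; rows by role and fibre class; blue is lower, red higher). Acrylamide replicate 2 of females and of males at night form the darkest blue columns, in which slow-fibre rows are the darkest.

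Slow-fibre genes were farther below control than fast-fibre genes on the arrays with little muscle. The classes are 13 fast genes (Myh1, Myh2, Myh4, Mylpf, Myl1, Tnnt3, Tnni2, Tnnc2, Actn3, Myoz1, Atp2a1, Pvalb and Mybpc2) and 7 slow genes (Myh7, Myl2, Myl3, Tnnt1, Tnni1, Tnnc1 and Myoz2), each centred on its own control mean so that no probe's level is set against another's. Centring does not remove differences in brightness. Mean levels were 0.31 to 4.63 over the slow genes and 3.22 to 7.37 over the fast genes, and the part of brightness in what follows was not tested. On acrylamide replicate 2 of females at night the slow genes lay at -6.06 to -5.07 from control and the fast genes at -4.47 to -2.60, with no overlap. On acrylamide replicate 2 of males the ranges were -10.61 to -6.06 and -8.14 to -3.48, and they overlapped. Of the 7 genes farthest below control, 7 on the female array and 6 on the male array were slow genes, though Myl2 and Myoz2 were not well above background on the latter. Across the 37 genes the differences on these 2 arrays had a Spearman's rho of 0.78, which describes 2 arrays and genes that share RNA and scaling. Myh7 lay farthest below control on both, and the nearest were Atp2a1 on the female array and Myh1 on the male array.

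Fast minus slow, the mean difference of the fast genes less that of the slow genes, was 0.86, 2.43, 0.003 and -0.62 on the 4 acrylamide arrays of females at night, around a control SD of 0.30 (n = 4). In males at night it was 0.27, 3.30, 0.46 and 1.82, around a control SD of 0.69. Without Myl2 and Myoz2, the 2 slow genes not well above background on replicate 2, that array stood at 2.92. In each sex the largest values belong to the 2 arrays lowest in muscle. The group difference was 0.67 in females and 1.46 in males, and without replicate 2 it was 0.08 and 0.85. Without acrylamide replicate 4 of females it was 1.1 there. Without the array labelled replicate 4 of males it was 1.34. In the morning the acrylamide arrays stood at -0.58, -0.58, -0.23 and -0.46, and the controls at 0.39, 0.53, -0.37 and -0.55. That group difference of -0.46 was 0.31 when each gene was read from a probe that never saturates, which leaves 2 fast and 7 slow genes, and -0.65 without both arrays whose Ube1y1 level goes against the label. It was -0.28 without control replicate 2, -0.26 after quantile normalization and -0.17 with another background correction.

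**Figure D4:**
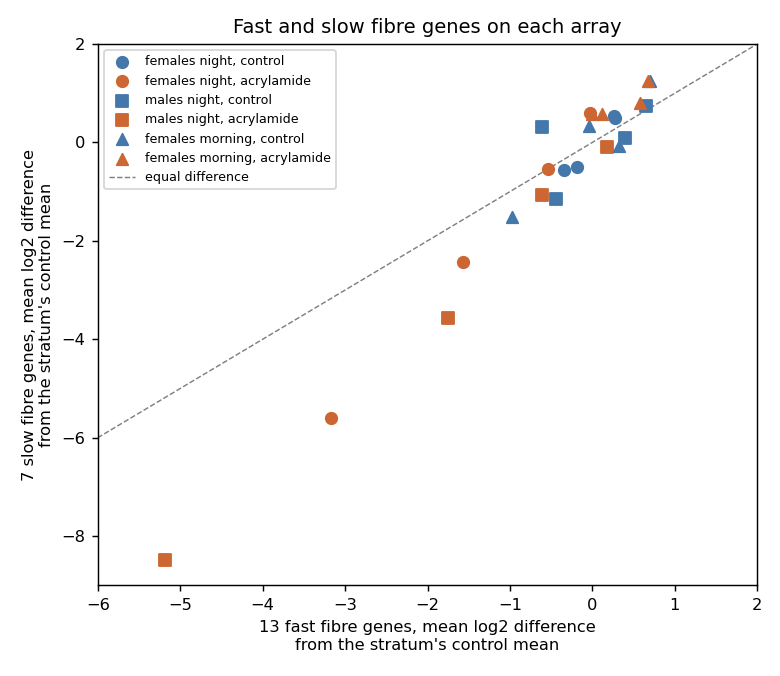
Mean difference of the 13 fast-fibre genes (horizontal) and the 7 slow-fibre genes (vertical) from the control mean of the same stratum, log2 scale, on each of the 24 arrays; the dashed line marks equal differences. The arrays with the lowest muscle level lie below the line, farthest for acrylamide replicate 2 of males at -5.19 and -8.49.

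Of the members, 6 had a second probe that passed the filter, and for 5 of them it had the sign of the chosen probe in all 3 comparisons (Casq1, Myh2, Neb, Tnnt1 and Tpm2), Tpm1 being the exception. The tropomyosin genes, whose proteins gate the actin filament and which are also spliced into forms made outside skeletal muscle, gave night differences nearer 0 from the second probe than from the chosen one. The chosen Tpm1 probe gave -1.33, -1.65 and 0.3 in females at night, males at night and morning females, and the second probe 0.03, 0.26 and -0.06. On acrylamide replicate 2 of males the chosen probe stood at 1.91, against 5.10 to 6.64 on the other 3 acrylamide arrays, while the second stood at 2.35, against 1.39 to 2.38. For Tpm2 the chosen probe gave -1.38, -2.18 and 0.89, and the second -0.18, -0.21 and 1.02. The Tpm2 probes are shown in the order chosen, second, because their positions separate them.
Tpm2: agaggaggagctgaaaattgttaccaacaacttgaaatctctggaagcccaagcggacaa
Tpm2: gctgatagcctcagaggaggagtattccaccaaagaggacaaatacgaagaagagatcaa
On rn4 the chosen probe lies at chr5:59998176-59998235 on the minus strand. The second probe's 60 bases span 601 bases of genome, chr5:59997963-59998563, so it crosses at least 1 splice junction, and the chosen probe lies inside that span, 213 bases from its lower end and 328 from its upper end. Transcripts that carry the chosen probe's exon between the outer ends of the second probe therefore differ from those the second probe was designed on. In morning females the second Tpm2 probe did vary with muscle, from 1.49 on control replicate 2 to 4.80 on acrylamide replicate 1, while at night it stayed between 0.77 and 1.54. The plot of both tropomyosin probes shows this on each array.

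**Figure D5:**
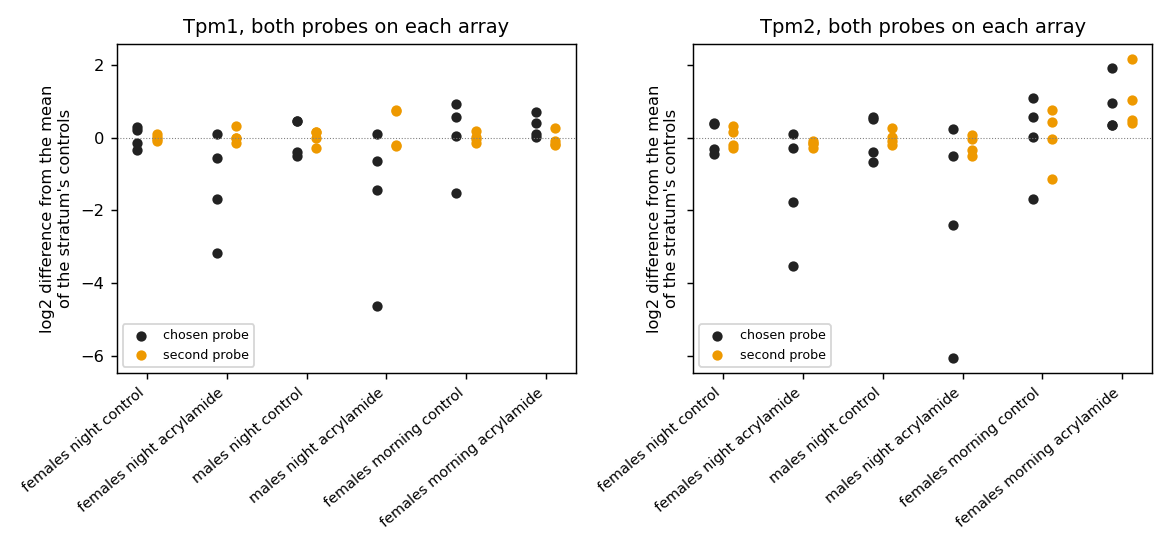
Log2 difference of the chosen and the second probe of Tpm1 and of Tpm2 from the control mean of the same stratum, on each of the 24 arrays in 6 groups. In the exposed night groups the chosen probes spread down to -4.62 and -6.06, while the second probes spread less there, and the second Tpm2 probe varies with the chosen one in the morning.

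The difference with acrylamide was compared between sexes and between times in the same fit. Males minus females at night gave a median of -0.62 over the members, all 37 below 0, with 0 members called (0% of all genes) and adjusted p from 0.996 to 0.998. At an unadjusted p under 0.05 there were 0 members, against 2.2% of all genes. Without acrylamide replicate 2 of males the median was 0.49 with all 37 above 0, without acrylamide replicates 1 and 3 of males -1.36 and -1.11, without acrylamide replicates 2, 3 and 4 of females -1.32, -0.35 and -0.11, each left out alone, and without the array labelled acrylamide replicate 4 of males -0.62. Females at night minus females in the morning gave a median of -2.36, from -3.31 to -0.67, with 0 members called (0% of all genes) and adjusted p from 0.235 to 0.757. At an unadjusted p under 0.05 there were 8 members, 21.6%, against 16.3% of all genes. Without the array labelled control replicate 4 of morning females this median was -2.71, and without acrylamide replicate 2 of females at night -1.51. The mean of the 3 effects had a median of -0.96 and called 0 members (0.00493% of all genes), with 9 members at an unadjusted p under 0.05 (24.3%, against 6.67% of all genes). Without acrylamide replicate 2 of males it was -0.58, and without both arrays with the lowest muscle -0.38. The female comparisons at night and in the morning use separate controls, and time goes with slide and scan session. Sex at night goes with slide.

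Among control females alone, the measured level of most members was higher on night arrays than on morning arrays, with no call. Time cannot be told apart from slide and scan session here. The difference had a median of 0.82, with 36 of 37 genes higher at night, and limma called 0 members against 48.6% of all genes (20.8% higher at night and 27.8% lower). At an unadjusted p under 0.05 there were 0 members, against 54.3% of all genes. Groups did not overlap for 9 members, all higher at night (24.3% of them, against 26.8% of all genes, with another 30.2% lower): Acta1, Myh4, Mylpf, Tnni2, Tnnc2, Actn2, Atp2a1, Ldb3 and Pygm. Mylpf, Tnnc2 and Atp2a1 of these were saturated on all 4 morning controls, and Tnni2 on 3, while night arrays had no saturated spots. A saturated level is only a lower bound, so neither the size nor the sign of their difference is measured. Among the 36, the same holds for Tnnt3, Actn3, Pvalb, Eno3 and Ckm, saturated on 3 morning controls each, and for Myh1, saturated on 1. Over the 20 members that never saturated the median was 0.80, with 19 higher at night. In a fit without acrylamide replicate 2 of males 6 members passed (Acta1, Myh4, Mylpf, Tnni2, Tnnc2 and Atp2a1), and in a fit to the 8 control arrays alone 11 did. The share of all genes called in these fits is not given here. It was 48.6% in the main fit, so the counts are not read as a result about muscle. Mylpf, Tnni2, Tnnc2 and Atp2a1 passed in both fits and are limited by saturation as above. Acta1 and Myh4, saturated on 0 morning controls, also passed in both, with a difference of 1.72 each. Their limma adjusted p was 0.0436 and 0.0443 without acrylamide replicate 2 of males, and 0.0103 and 0.0152 in the control fit. Actn2, Ldb3 and Pygm, which never saturated, passed in the control fit only. Without the array labelled control replicate 4 of morning females the median was 1.11, and without control replicate 2, 0.40. At night the sexes lie on separate slides, so a difference between them cannot be told apart from slide. Among night controls, males minus females had a median of 0.29, 36 of 37 above 0, with 0 members called (0.00986% of all genes) and 0 at an unadjusted p under 0.05 (1.64% of all genes). Single arrays moved this median: it was 0.17 without control replicate 4 of females, and 0.16, 0.49 and 0.10 without control replicates 1, 3 and 4 of males. Slow genes differed by 0.82 to 1.00 and fast genes by -0.04 to 0.56. Groups did not overlap for Mb (2% of all genes lay higher and 1.73% lower without overlap).

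Other skeletal muscle genes gave the same signs as the 37. Of 62 listed, 55 were tested, and 54 of these were lower in females at night (median -1.31), 55 of 55 lower in males at night (median -1.72) and 51 of 55 higher in morning females (median 1.07). None was called in these comparisons. Between control females at night and in the morning limma called 5 of the 55, against 48.6% of all genes. Myh8 (adjusted p = 0.0282) was saturated on all 4 morning controls, so neither the size nor the sign of its difference is measured. The thin filament nucleator Lmod2 (1.28, adjusted p = 0.0135) was called higher at night. Called lower were the acetylcholine receptor subunit Chrna1 (-2.97, adjusted p = 5.71e-09), the myogenic factor Myf5 (-1.67, adjusted p = 0.00754) and Synpo2l (-1.56, adjusted p = 5.54e-05). Named for the highest mean signals of the list, Myh8, the perinatal myosin, differed by -0.83 (SE 0.62) in females and -1.28 (SE 0.62) in males at night, and its probe was saturated on every morning array. Cox6a2, a muscle subunit of cytochrome oxidase, differed by -1.51 (SE 0.79), -1.89 (SE 0.79) and 0.19 (SE 0.79), the last limited by saturation on 1 control and 3 acrylamide arrays. Of the cardiac list 5 of 7 were tested, with 0 called with acrylamide. Their median difference was 0.02 in females at night (3 higher, 2 lower), -0.15 in males at night (2 higher, 3 lower) and 0.46 in morning females (3 higher, 2 lower). Its genes of highest mean signal, Myh6 and Myl4, both atrial myosin genes, differed by -2.03 (SE 1.46) and -1.63 (SE 0.99) in females at night and by -3.65 (SE 1.46) and -2.65 (SE 0.99) in males. Smooth muscle genes, 8 of 8 tested and 0 called with acrylamide, had medians of 0.05, -0.12 and 0.37.

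Markers of other tissues were read beside these results, and their part in them was not tested. On acrylamide replicate 2 of females and of males at night the thyroid follicle list stood at 2.82 and 2.94, against 2.70 to 2.83 and 2.48 to 2.64 on the controls of the same slides, which places them within and above the control range. Acrylamide replicates 1, 3 and 4 of males also lay above that range, at 2.74, 2.76 and 3.19. Those of females stood at 3.15, 2.64 and 2.63. The pituitary list, 6 of 7 genes tested, stood at -1.09 and 0.53 on acrylamide replicate 2 of females and of males, against -5.49 to -4.08 and -5.40 to -4.12 in controls. On acrylamide replicate 1 of males, where muscle was within the range of the controls, it was at 0.12. It also lay above all controls on acrylamide replicates 3 and 4 of females (-2.58 and -2.64) and of males (-2.88 and -1.53). Muscle was within the control range on replicate 4 of these females too. Acrylamide replicate 1 of females, at -5.40, lay within the control range of the list. On acrylamide replicate 2 of females and of males at night the nerve list was at -0.60 and -1.61, its lowest values. In females at night, males at night and morning females, the median differences were 2.15, 4.44 and -0.46 for the pituitary list. For the nerve list they were -0.31, -0.45 and 0.41. In morning females the oesophageal list, 9 of 10 genes tested, had a median difference of 2.61, with the keratin Krt13 called higher (4.78, SE 1.15, adjusted p = 0.0414) and the desmocollin Dsc3 called lower (-1.44, SE 0.33, adjusted p = 0.0392). Its level ranged from -4.11 to 0.89 on acrylamide arrays and from -4.03 to -2.70 on controls. Cartilage markers (7 of 8 tested) differed by a median of 1.15 and thyroid follicle markers by -2.36 in the same comparison, with Foxe1 and Duox2, a transcription factor and an oxidase of the follicle, called lower (-1.14, SE 0.26, adjusted p = 0.0393; -0.82, SE 0.20, adjusted p = 0.0429). Acrylamide replicate 1, with the most muscle of its group, had the least thyroid signal. Fat, fibroblast and tendon, endothelial and red cell lists had medians between -0.61 and 0.20 in the 3 comparisons, with the endothelial receptor Kdr called lower in morning females (-0.98, SE 0.22, adjusted p = 0.0392). Thymus and T cell genes had medians of 1.62, 1.12 and 0.15, C cell genes -0.04, 0.11 and -1.03, and parathyroid genes -0.02, -2.0 and -2.14. Acrylamide replicate 1 of morning females carried much of the morning values: without it the medians were 1.92 for the oesophageal list, 1.23 for cartilage, -0.75 for thyroid follicle, -0.36 for C cells, -0.77 for parathyroid and 0.66 for thymus and T cells. In that fit limma called none of Krt13, Dsc3, Foxe1, Duox2 and Kdr (adjusted p from 0.109 to 0.168). Without both arrays whose Ube1y1 level goes against the label, the parathyroid median in males was 0.13 and that of thymus and T cells 2.04. In the same fit the morning medians were 2.36 for the oesophageal list, 2.09 for cartilage, -2.31 for thyroid follicle, -1.17 for C cells, -1.95 for parathyroid and 0.50 for thymus and T cells, and of the 5 genes just named limma called Dsc3 (adjusted p = 0.0452). It also called the cartilage genes Col2a1, Comp and Col11a1 higher there (adjusted p = 0.00276, 0.038 and 0.0476). Without acrylamide replicate 1 of morning females, limma called Prl of the pituitary list higher in males at night (8.33, adjusted p = 0.0465). With all arrays its adjusted p was 0.0673, and without both arrays whose Ube1y1 level goes against the label 0.0914. The Prl probe was well above background on only 1 control array of males at night.

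Promoters of the members were searched for motifs known from muscle genes, as a description of sequence with no bearing on binding. Of the 39 genes, 33 had an entry in the RefSeq table (build GRCr8), and only the 250 bases before the annotated start were read, on both strands, with overlaps between motifs allowed. The E-box CANNTG, the core of MyoD family sites, was found in 28 of 33 (84.8%), against 65.2% of all 27457 promoters of that length. TATAAA was found in 11 of 33 (33.3%, against 13.1%), and CATTCC, the core of the MCAT element, in 8 of 33 (24.2%, against 11.8%). The Acta1 stretch, chr19:68784195-68784444 on the minus strand, is shown because it holds all 3, which are in capitals.
Acta1: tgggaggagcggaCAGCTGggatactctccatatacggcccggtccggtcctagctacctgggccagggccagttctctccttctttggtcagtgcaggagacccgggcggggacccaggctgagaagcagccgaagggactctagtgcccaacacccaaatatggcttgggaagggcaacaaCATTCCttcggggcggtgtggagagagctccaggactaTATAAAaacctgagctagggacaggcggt
Its E-box begins 237 bases before the start, CATTCC at 67 and TATAAA at 29.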

How the data were processed

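Total RNA of thyroid glands was labelled with Cy3 and hybridised to 1-colour arrays, 1 sample per array, 24 arrays in 6 groups of 4. The deposited files are scanner output: processed signal, spot and background brightness are intensity values made by Agilent Feature Extraction 10.1.1.1 on the rn4 build, per the file headers, with background and spatial trend removed within each array. The deposited value table holds log2 values, with each array's median at 0, and was used as an alternative. No aligner applies, and any step after feature extraction is not given in the sources used here.

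Log2 processed signal minus the array's 75th percentile was the level, and repeat spots were averaged. Of 30367 probes, 23416 were kept because they were well above background on at least 3 of 4 arrays of at least 1 group, and the probe of highest mean represented each of 20292 genes. Saturated spots were kept. Names came from the newer of the design annotations, except that a probe named for a member in the older one took that name; 3180 probes are named differently between them. Limma 3.58.1 in R 4.3.3 fitted 6 group means to all arrays (18 residual degrees of freedom), tested 2-sided, with Benjamini-Hochberg adjustment over all genes and a threshold of 0.05. The fit was tested on simulated data. Lists got no test of their own. All 39 members are named. Values on every array are given for the gene of highest mean signal in each role and fibre class and for the 3 largest and 3 smallest differences of each acrylamide comparison, and list genes are named if called or of highest signal. The members and lists were chosen with earlier results of these data known. Same-numbered control and acrylamide arrays had correlations of -0.228 to 0.355, so the numbers did not pair them. Alternatives changed the normalization, background correction, filter, probe choice, annotation, arrays fitted, slide term and replicate term, and left out each array in turn. The number of arrays limits the precision.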

Additional observations from a re-analysis of the deposited data

Results flagged for a closer look

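For 4 members every acrylamide array of females at night lay below the mean of its controls, and every acrylamide array of morning females lay above the mean of theirs. The share of all genes with this pattern was not counted. On acrylamide replicate 4 of females at night the differences were -0.05 (Myh4), -0.15 (Mybpc2), -0.14 (Cacna1s) and -0.1 (Casq1). These are smaller than the control SDs of these genes, 0.34 to 0.43. Night minus morning differed by -2.66 for Myh4, the heavy chain of fast IIb fibres, by -2.53 for the fast myosin-binding protein Mybpc2, by -2.32 for the voltage sensor Cacna1s and by -2.05 for calsequestrin, Casq1. In limma's test of the difference itself the adjusted p values were 0.427, 0.235, 0.381 and 0.437, so none passed. Of the 37 members tested, 37 had a negative night minus morning difference. Myh4 was saturated on 2 and Casq1 on 1 of the morning acrylamide arrays, Mybpc2 and Cacna1s on none, and time goes with slide and scan session. No array stood apart by Dixon's criterion in 132 groups of 4 examined (22 quantities in 6 groups), where chance alone marks about 1 in 20.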

How the results depend on the processing

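In each of the 3 acrylamide comparisons, the mean of them, both differences between strata and the male minus female control comparison, 0 members were called under every setting run: 37 settings, or 36 for the mean of 3 effects, where a fit of only the arrays compared has no counterpart. Leaving out 1 array at a time, the median over members ranged from -1.97 to -0.74 in females at night, from -2.87 to -0.95 in males at night, from 0.28 to 1.09 in morning females, from -1.18 to -0.58 for the mean effect, from -1.36 to 0.49 for males minus females, and from -2.90 to -1.51 for night minus morning; the lowest adjusted p of a member in males was 0.0768, without acrylamide replicate 1. For control females, night minus morning, the count of called members was 0 as reported, 4 with the deposited value table (Mylpf, Tnni2, Tnnc2 and Atp2a1), 1 with the older annotation, which takes Tpm2 from its other probe, 11 in a fit of only the arrays compared, 0 to 6 leaving out 1 array, and 6 without both arrays of lowest muscle level, which, like leaving out both arrays whose Y-linked gene goes against the label, was chosen after seeing the data. The share of all genes called in these fits is not given here, and was 48.6% in the main fit. Mylpf, Tnni2, Tnnc2 and Atp2a1 were saturated on 3 or 4 morning controls, so their calls give no sign. Acta1 and Myh4, called without both arrays of lowest muscle level, were saturated on 0 morning controls and higher at night. Fast minus slow in the morning was 0.31 in place of -0.46 with probes that never saturate, where fewer genes remain. The count of all genes called in morning females was 427, against 0 to 2131 over the settings. With the replicate number as a block 0 members were called. The medians stayed at -1.46, -2.11 and 0.77, which this setting cannot change because every group holds each number once. Of 12 same-numbered pairs, 3 correlated best with their own number, so a pairing was not borne out, though these correlations cannot exclude it. Saturation limits what the morning arrays can show for 9 members, and 4 arrays per group leave SEs of 0.65 to 1.56.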
